A study of Rattus norvegicus with 16 samples.

Results

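The solute carriers described here were the genes whose symbols begin with Slc, a family number, the letter a and a member number, and whose level averaged at least 1 CPM (counts scaled to a common total of reads on genes) over the 16 rat liver libraries. The mitochondrial Slc25a carriers and 7 further symbols (Slc10a1, Slc2a1, Slc7a11, Slc30a1, Slc30a10, Slc39a14 and Slc40a1) were left out by the rule. Of 17055 symbols in the files 316 matched the pattern, 270 remained after the exclusions, and 155 reached the threshold. Of the 115 below it, 16 had no read in any library. The level chose the members, so no level alone is a result. The members nearest to the threshold were Slc17a7 (mean 1.03 CPM), Slc24a2 (1.23 CPM) and Slc44a4 (1.29 CPM), and the nearest symbols below it were Slc6a17 (0.927 CPM), Slc5a1 (0.924 CPM) and Slc1a6 (0.864 CPM). By sites assigned from general knowledge, 98 members are plasma membrane proteins, 4 sit in vesicles, and others in lysosomes (10), the Golgi apparatus (11) or the endoplasmic reticulum (6), so the group was wider than plasma membrane and vesicle carriers. Slc9a3r1, Slc9a3r2, Slc4a1ap and Slc7a6os match the pattern but name no carrier.

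Male Sprague-Dawley rats aged 10 weeks were kept under general anesthesia with isoflurane, a volatile anesthetic, or with propofol, an intravenous one, for 8 h after celiotomy. Sepsis was made by cecal ligation and puncture, and the control rats had sham surgery, in which the cecum was handled and returned. Every group had 4 libraries, numbered 1 to 4 for Isoflurane-Sepsis, 5 to 8 for the isoflurane controls, 9 to 12 for Propofol-Sepsis and 13 to 16 for the propofol controls. A library was made from the pooled liver tissue of 3 rats. The isoflurane rats were induced with isoflurane and the propofol rats with ketamine-xylazine, and the names of the deposited count files followed a different pattern for each anesthetic, so anesthetic, induction and whatever the names mark cannot be told apart.

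Solute carriers move ions, nutrients, vitamins, metals and drugs across membranes, either down a gradient or coupled to sodium, protons or a second solute. The hepatocyte uses them at its blood-facing membrane to take up amino acids, sugars, lactate and organic anions and to release glucose, and Kupffer cells and neutrophils carry their own sets in phagosomes and lysosomes. In the acute-phase response the liver is known to take up more amino acids while many drug and organic anion carriers are turned down.

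The libraries held between 14199422 and 49937173 reads on genes. The 8 hepatocyte markers summed to between 143895 and 195581 CPM in every library, so the defining markers of the labelled tissue were present. The 11 neutrophil and monocyte markers, of which Ly6c was at 0 throughout and Mpo and Elane were near 0, summed to between 36.1 and 116.6 CPM in Isoflurane-Sepsis and between 17.0 and 19.5 CPM in isoflurane controls. Under propofol the sums were between 36.9 and 53.6 CPM in sepsis and between 18.4 and 25.4 CPM in controls. Of the other marker lists, Kupffer cell and macrophage genes had 6 calls higher and 1 lower of 9 under isoflurane and 2 higher and 1 lower under propofol, and endothelial genes 4 lower of 7 under isoflurane and 1 higher and 2 lower under propofol. The hepatocyte list had 4 of 8 called (2 higher, 2 lower) and 3 of 8 (2 higher, 1 lower). The stellate cell list had 4 of 7 (3 higher, 1 lower) and 3 of 7 (1 higher, 2 lower). The cholangiocyte list had 2 of 3 and 1 of 3 called, all higher. The red cell list had 0 of 5 (0 at an unadjusted p) and 1 of 6, and the lymphocyte list 1 of 1 and 0 of 1. Of all genes tested 50.0% were called under isoflurane and 42.1% under propofol, by the test described below. The hepatocyte and stellate cell shares were near these. Library 10, of the Propofol-Sepsis group, stood apart: 13 brain genes, listed after the data had been seen, summed to 284 CPM in it and to at most 21.4 CPM in every other library. Results that rest on library 10 are given with and without it.

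Sepsis was set against control within each anesthetic with edgeR's quasi-likelihood test on the deposited counts, and a member was called at an adjusted p below 0.05 over all genes tested. Levels from here on are TMM-scaled CPM, which are not per length. A higher level of 1 gene than of another is therefore not read as more transcripts. Sums over a class weigh genes by their reads. Under isoflurane 35 members rose and 51 fell of 152 tested, against 50.0% of all genes called (25.7% higher and 24.4% lower). Under propofol 37 rose and 44 fell of 154 tested, against 42.1% of all genes called (20.4% higher and 21.7% lower). The members' median log2 fold change was -0.17 under isoflurane and -0.05 under propofol, and that of all genes was 0.01 and -0.00. Sepsis and control libraries did not overlap for 86 members under isoflurane (48.7% of all genes) and for 76 under propofol (42.2%). Since the members were chosen on their level, 7 of them were at or above the threshold through sepsis, with a control mean below 1 CPM, and 3 through controls. Without these 10 members 31 rose and 48 fell under isoflurane, and 33 rose and 42 fell under propofol. The filter on low counts left out Slc24a2 and Slc17a7, among others, under isoflurane.

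The comparisons of the 2 anesthetics share no library. Of the members called higher, 24 were called under both anesthetics, which was 68.6% of the isoflurane calls and 64.9% of the propofol calls. Of those called lower, 32 were called under both (62.7% and 72.7%). Slc41a3 was the 1 member called in opposite directions. Of the 155 members 45 were called in neither comparison. Over the 152 members tested in both, the log2 fold changes had the same sign in 80.9%, with Pearson's r 0.78 across genes, which are not independent. Over all 10182 genes tested in both the share was 77.8% and r was 0.76.

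**Figure D1:**
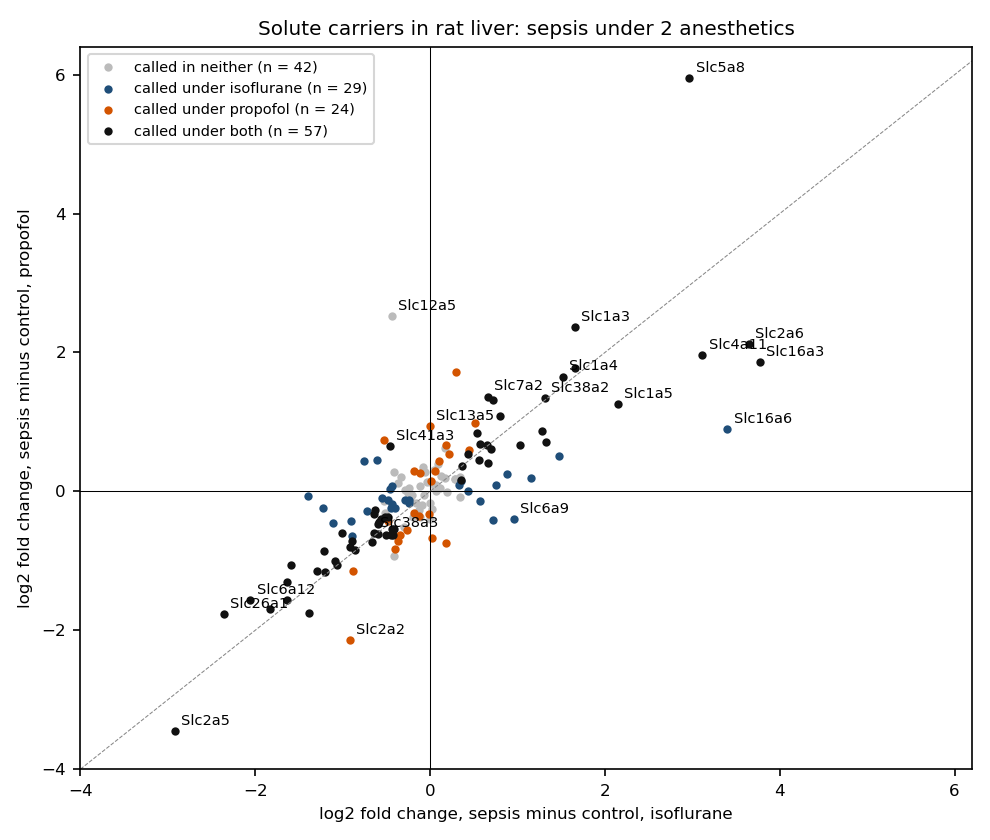
Log2 fold change of each of 152 members in sepsis against control under isoflurane (x axis) and under propofol (y axis), with the dashed line at equal change. Black points were called under both anesthetics (57), blue under isoflurane alone (29), orange under propofol alone (24) and grey in neither (42). Slc5a8, Slc2a6, Slc16a3 and Slc4a11 lie far to the upper right and Slc2a5 far to the lower left, the first 4 being members through sepsis and Slc2a5 through controls.

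The promoters of the members that moved the same way under both anesthetics were set side by side. Base composition was chosen for description with its difference known. RefSeq promoters (GRCr8, the 250 bases before the annotated start) were matched by symbol for 127 of the 155 members. The 18 matched members that rose in both had a median GC content of 67.8% (from 48.0% to 83.2%), and 13 of them were at 60% or more. The 28 that fell in both had a median of 52.4% (from 36.0% to 74.8%), with 6 at 60% or more. The 34 called in neither had a median of 61.6%, and all 27457 promoters one of 52.0%. Observed over expected CG dinucleotides followed the same order, with medians of 0.792 for those that rose, 0.439 for those that fell, 0.661 for those called in neither and 0.406 for all promoters. The ranges of the sets overlapped, and this is a description without a test. The set that rose holds Slc5a8, Slc16a3 and Slc2a6, which are members through sepsis. The set that fell holds Slc2a5 and Slc22a25, which are members through controls. The promoters of the 2 most read matched members of each set follow 5′ to 3′, with CG in capitals. They are Slc38a2 (chr7:129742620-129742869, minus strand) and Slc44a1 (chr5:72858750-72858999, plus strand), which rose, and Slc27a2 (chr3:134257851-134258100, plus strand) and Slc27a5 (chr1:82699336-82699585, minus strand), which fell.
Slc38a2: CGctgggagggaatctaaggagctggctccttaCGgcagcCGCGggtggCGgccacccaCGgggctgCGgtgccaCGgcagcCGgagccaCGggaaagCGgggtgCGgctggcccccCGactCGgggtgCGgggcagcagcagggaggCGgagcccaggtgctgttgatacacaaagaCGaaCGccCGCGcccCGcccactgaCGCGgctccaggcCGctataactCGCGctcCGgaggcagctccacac
Slc44a1: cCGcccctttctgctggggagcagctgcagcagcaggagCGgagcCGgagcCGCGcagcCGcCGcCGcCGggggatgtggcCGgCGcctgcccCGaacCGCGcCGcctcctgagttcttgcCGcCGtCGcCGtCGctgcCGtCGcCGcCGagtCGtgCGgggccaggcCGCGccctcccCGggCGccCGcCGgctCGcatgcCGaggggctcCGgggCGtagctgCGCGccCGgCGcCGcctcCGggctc
Slc27a2: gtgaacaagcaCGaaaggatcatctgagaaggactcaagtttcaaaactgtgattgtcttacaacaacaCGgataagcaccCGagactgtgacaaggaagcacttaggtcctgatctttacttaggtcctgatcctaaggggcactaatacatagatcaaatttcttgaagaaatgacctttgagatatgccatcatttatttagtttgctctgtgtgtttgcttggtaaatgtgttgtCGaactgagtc
Slc27a5: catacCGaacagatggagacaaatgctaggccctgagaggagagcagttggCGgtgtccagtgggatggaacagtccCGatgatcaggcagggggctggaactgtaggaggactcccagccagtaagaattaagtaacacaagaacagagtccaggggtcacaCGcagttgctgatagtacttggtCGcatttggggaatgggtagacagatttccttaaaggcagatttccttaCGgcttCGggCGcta
The Slc38a2 window held 27 CG dinucleotides and that of Slc44a1 42, against 4 for Slc27a2 and 8 for Slc27a5.

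The letters of 12 short motifs were searched on both strands of the same windows. The GC box GGGCGG, itself made of G and C, was in 10 of the 18 windows of members that rose and in 8 of the 28 of members that fell, against 22 of the 34 called in neither and 32.4% of all promoters. The amino acid response element core TGATGNAA was in 1 of 18 (Slc1a4) and 1 of 28 (Slc9a9), against 0 of 34 called in neither and 3.27% of all promoters. The palindrome TTCNNNGAA, which STAT factors can bind, was in 1 of 18 (Slc16a3) and 1 of 28 (Slc39a8), against 1 of 34 called in neither and 7.52% of all. CACGTG (E-box) was in 2 of 18 and 2 of 28, TTGCNNAA (C/EBP) in 1 and 4, CCAAT in 5 and 10, and TGACG (which TGACGTCA, the CRE, contains) in 2 and 4. Of the 34 called in neither 8, 3, 14 and 7 held these, and of all promoters 5.79%, 9.20%, 34.3% and 19.0%, so that the E-box was most frequent in the members called in neither. TGACGTCA, the NF-kB and HNF1 motifs, CAAAGTCCA (HNF4) and TTATGTAA (D-box) were in none of either set, and in 1.70%, 0.317%, 0.331%, 0.331% and 0.816% of all promoters. A match is only a run of letters in this window.

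The members were divided by substrate into 13 classes. Amino acid carriers were called higher more often than lower, and the carriers of organic ions and drugs and of sugars lower more often than higher, under both anesthetics. Of all genes tested 25.7% were called higher and 24.4% lower under isoflurane, and 20.4% and 21.7% under propofol. Of the amino acid carriers 78.3% were called under isoflurane and 39.1% under propofol, against 50.0% and 42.1% of all genes. The propofol share was thus near that of all genes. Metal carriers had 4 calls higher and 8 lower under isoflurane and 9 higher and 3 lower under propofol. These differences between anesthetics were not tested as classes.

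**Figure D2:**
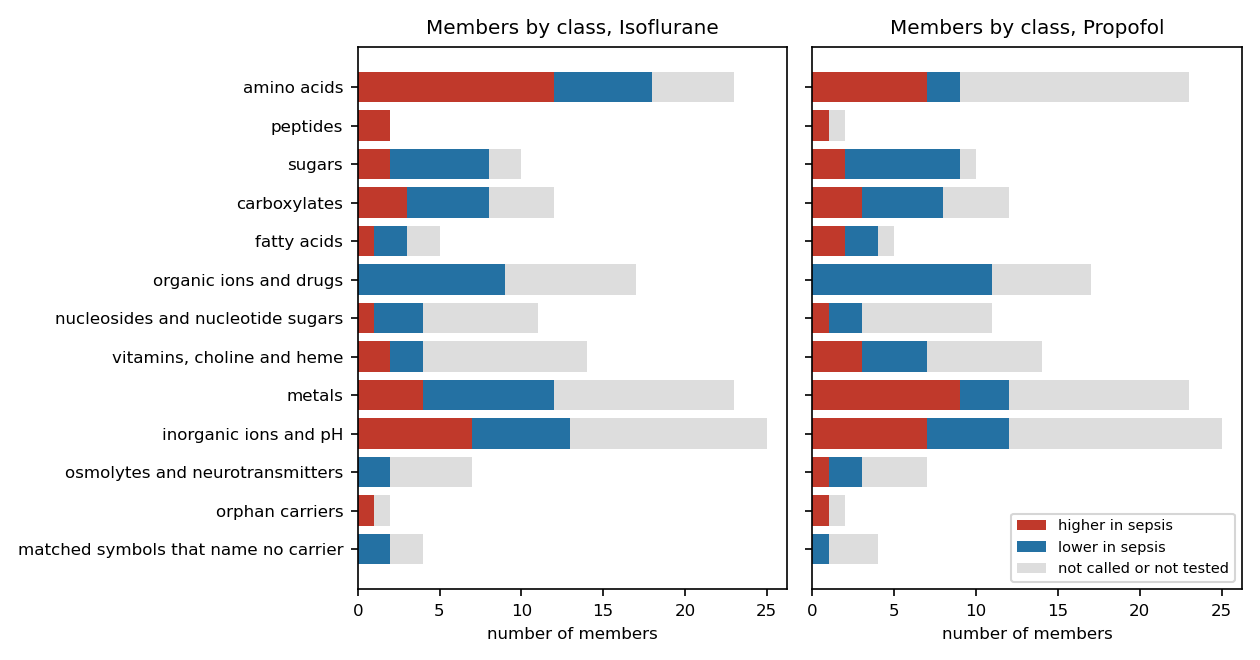
Number of members of each substrate class (x axis) called higher in sepsis (red), called lower (blue) or not called or not tested (grey), under isoflurane (left) and propofol (right). No organic ion or drug carrier was called higher under either anesthetic, and 9 and 11 of 17 were called lower.

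Under isoflurane 12 of 23 amino acid carriers were called higher and 6 lower, with a median log2 fold change of 0.66. Under propofol 7 were higher and 2 lower, with a median of 0.09. Summed over the 23 carriers, the level was between 3874 and 4110 CPM in isoflurane controls and between 4452 and 5162 CPM in Isoflurane-Sepsis, without overlap. The propofol sums overlapped, with 3496 to 3927 CPM in controls and 3646 to 4250 CPM in sepsis. Under both anesthetics Slc38a2, described next, rose by more CPM on average than the sum did. The summed level of the other amino acid carriers therefore did not rise on average.

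Slc38a2, a sodium-coupled carrier of small neutral amino acids whose transcript is known to rise on amino acid shortage, had 1453, 1511, 1652 and 2026 CPM in Isoflurane-Sepsis libraries 1 to 4 and 679, 690, 561 and 746 CPM in the controls. In Propofol-Sepsis libraries 9 to 12 it had 809, 1123, 908 and 694 CPM, against 425, 250, 379 and 331 CPM in the controls. Every sepsis library was above every control of its anesthetic. The log2 fold changes were 1.31 (SE 0.13, adjusted p = 0.00013, edgeR) and 1.35 (SE 0.18, adjusted p = 0.00038, edgeR), a 2.49-fold and a 2.54-fold rise.

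Slc38a3, which carries glutamine with sodium in hepatocytes around the central vein, fell. It had 1058, 1023, 981 and 844 CPM in Isoflurane-Sepsis against 1484, 1525, 1579 and 1532 CPM in controls, and 1134, 1022, 1118 and 1177 CPM in Propofol-Sepsis against 1606, 1685, 1784 and 1651 CPM in controls. The groups did not overlap, and the log2 fold changes were close, -0.65 (SE 0.08) and -0.60 (SE 0.06). So of the 2 most read members 1 rose and 1 fell. The third carrier of the family with a high level, Slc38a4, was not called (log2 fold change -0.07 and -0.05). The lysosomal arginine sensor Slc38a9 fell under isoflurane (-1.11, adjusted p = 0.0019, edgeR) and had -0.46 under propofol (adjusted p = 0.10, edgeR).

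The neutral amino acid exchangers of the Slc1 family rose under both anesthetics. Slc1a4 had 97.5, 128, 164 and 145 CPM in Isoflurane-Sepsis and 28.6 to 57.5 CPM in controls, and 43.7 to 77.1 CPM in Propofol-Sepsis against 15.6 to 23.6 CPM in controls. Its log2 fold changes were 1.52 (SE 0.23) and 1.65 (SE 0.18), with no overlap. Slc1a5, the glutamine exchanger that dividing cells use, had 3.54 to 7.31 CPM against 1.04 to 1.83 CPM under isoflurane and 2.58 to 4.07 CPM against 1.20 to 1.74 CPM under propofol, with log2 fold changes of 2.15 (SE 0.28) and 1.26 (SE 0.21). The glutamate carrier Slc1a2 of perivenous hepatocytes fell under isoflurane (-0.91, adjusted p = 0.0031, edgeR). Slc1a3, the glial glutamate carrier, is given with library 10 further on.

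Carriers of cationic amino acids were next. Slc7a2, the main liver arginine carrier, had 424, 518, 656 and 768 CPM in Isoflurane-Sepsis and 339 to 398 CPM in controls. In Propofol-Sepsis it had 449, 628, 399 and 305 CPM, and in the controls 136 to 188 CPM. The groups did not overlap, and the log2 fold changes were 0.66 (SE 0.17) and 1.36 (SE 0.20). Slc7a1, its relative with high affinity, rose under isoflurane (35.9 to 61.0 CPM against 21.9 to 25.7 CPM, log2 fold change 1.15, adjusted p = 0.00047, edgeR). Under propofol it had 49.5 to 68.1 CPM against 31.6 to 70.6 CPM (0.20, adjusted p = 0.47, edgeR), with overlap. The test of the difference between the responses gave 0.95 (adjusted p = 0.077, edgeR).

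Of the carriers that pair with the heavy chain Slc3a2, Slc7a6 rose under both (5.54 to 11.1 CPM against 2.14 to 3.01 CPM, and 5.53 to 6.73 CPM against 1.44 to 2.05 CPM), with log2 fold changes of 1.66 (SE 0.23) and 1.78 (SE 0.15). Slc7a6os, a gene of another kind that neighbours Slc7a6, had 0.02 and 0.12 and was not called. Slc7a8 and Slc7a5, carriers of large neutral amino acids, rose under isoflurane (1.47, adjusted p = 0.0017, and 0.72, adjusted p = 0.0038, edgeR) and had 0.51 and -0.41 under propofol (adjusted p = 0.11 and 0.25, edgeR). Slc3a2 itself was not called (0.20 and -0.02). Slc7a7, which releases cationic amino acids, fell under propofol (-0.71, adjusted p = 0.0010, edgeR). Slc16a10, which exports aromatic amino acids, rose under both (0.72, SE 0.15, and 1.31, SE 0.19).

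The peptide and histidine carriers of lysosomes had 2 of 2 calls higher under isoflurane and 1 of 2 under propofol. Slc15a3, a carrier of macrophage endolysosomes, had 5.04 to 8.34 CPM in Isoflurane-Sepsis against 2.37 to 2.97 CPM, and 5.47 to 5.93 CPM in Propofol-Sepsis against 2.83 to 3.80 CPM. It rose under both (log2 fold changes 1.33, SE 0.17, and 0.71, SE 0.13). Slc15a4 rose under isoflurane (0.33, adjusted p = 0.020, edgeR) and had 0.10 under propofol. In whole liver, a larger number of such cells and more RNA per cell cannot be told apart. The neutrophil and monocyte markers rose in the same comparisons, with 5 of 6 tested called higher under isoflurane and 4 of 6 under propofol. The Kupffer cell and macrophage markers had 6 of 9 called higher under isoflurane and 2 of 9 under propofol, and 1 lower in each. Their median log2 fold changes were 0.35 and -0.08. The part of these cells in the results was not tested.

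**Figure D3:**
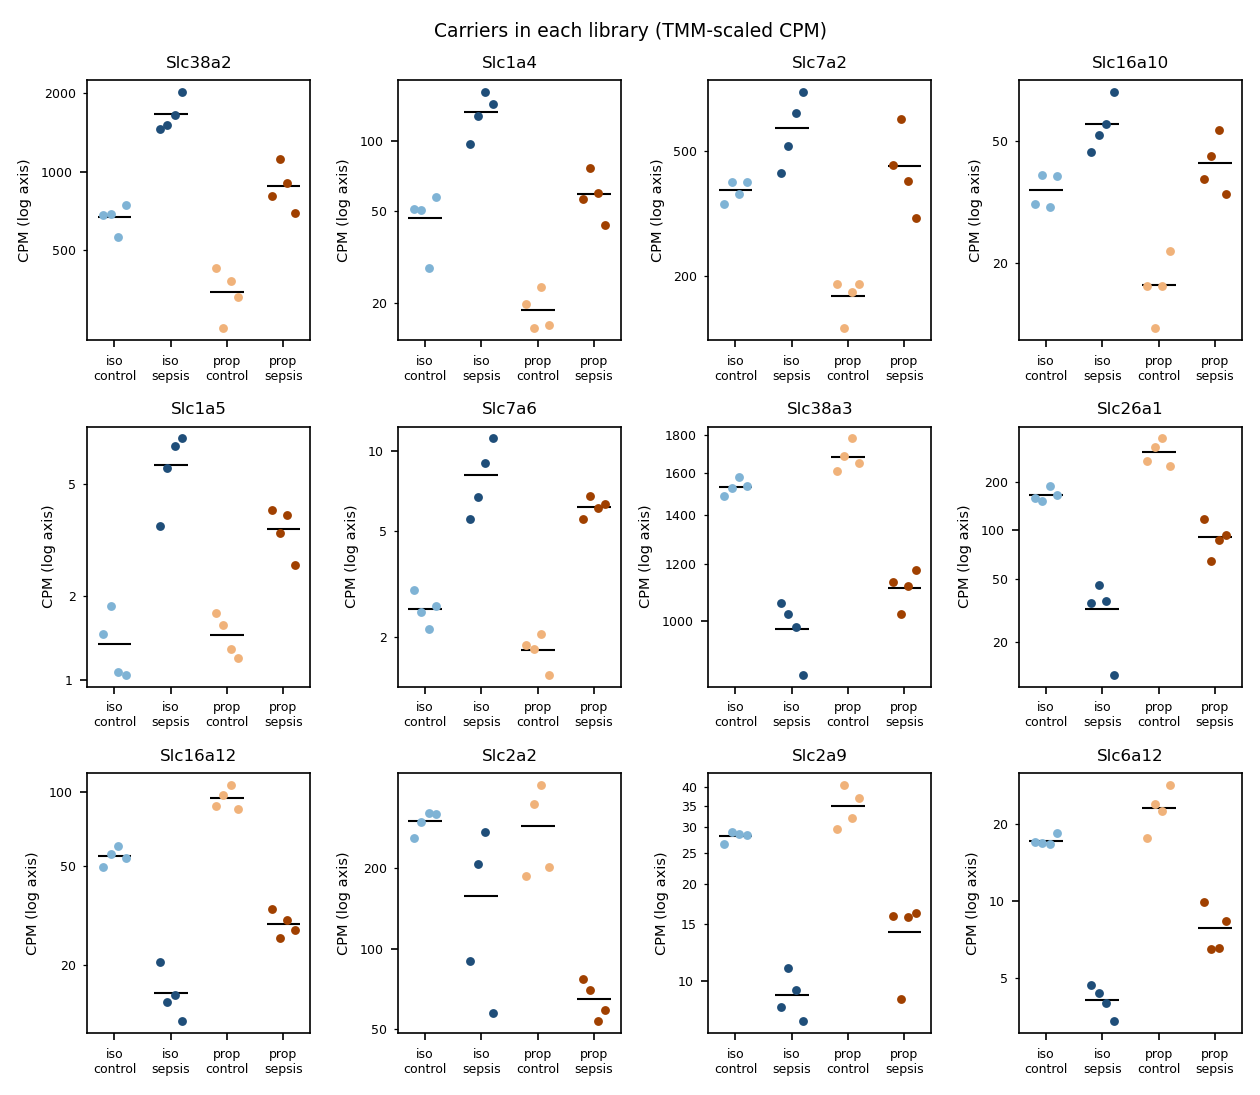
TMM-scaled CPM (log axes) of 12 carriers in each library, with 4 points per group and a line at the group mean. Slc38a2, Slc1a4, Slc7a2, Slc16a10, Slc1a5 and Slc7a6 sit higher in sepsis and Slc38a3, Slc26a1, Slc16a12, Slc2a9 and Slc6a12 lower under both anesthetics, while Slc2a2 overlaps under isoflurane alone.

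Of 10 sugar carriers 6 were called lower and 2 higher under isoflurane and 7 lower and 2 higher under propofol, at medians of -0.68 and -0.95. Their summed level was between 118 and 357 CPM in Isoflurane-Sepsis against 411 to 507 CPM in controls, and between 145 and 197 CPM in Propofol-Sepsis against 348 to 619 CPM. Slc2a2, the glucose carrier GLUT2 of the hepatocyte surface, had 76.9, 70.2, 53.4 and 58.9 CPM in Propofol-Sepsis and 186, 346, 409 and 202 CPM in the controls. It fell 4.43-fold (log2 fold change -2.15, SE 0.25, adjusted p = 0.00022, edgeR) without overlap. Under isoflurane it had 89.7, 208, 274 and 57.5 CPM in sepsis and 258, 298, 322 and 319 CPM in controls. Libraries 1 and 4 were far below the controls and library 3 lay within them, and the change of -0.92 (SE 0.43) was not called (adjusted p = 0.10, edgeR). It was called in 3 of 16 alternatives, which were DESeq2 (adjusted p = 0.0497), all 16 libraries in 1 fit (adjusted p = 0.045, edgeR) and leaving out library 3 (adjusted p = 0.022, edgeR). The test of the difference between anesthetics gave 1.21 (adjusted p = 0.18, edgeR), so the responses were not shown to differ.

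Slc37a4, the glucose-6-phosphate carrier of the endoplasmic reticulum that feeds glucose release, fell 2.09-fold under both anesthetics. It had 60.4, 70.1, 48.3 and 25.1 CPM in Isoflurane-Sepsis against 94.6 to 124 CPM, and 48.6 to 76.2 CPM in Propofol-Sepsis against 99.3 to 156 CPM. The groups did not overlap. Slc37a1, its relative, rose (0.80 and 1.09).

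The urate and fructose carriers fell. Slc2a9, the liver urate carrier, had 7.49 to 10.96 CPM against 26.6 to 29.1 CPM under isoflurane and 8.83 to 16.2 CPM against 29.7 to 40.6 CPM under propofol, at -1.64 (SE 0.12) and -1.30 (SE 0.18). Slc2a5, the fructose carrier GLUT5, had 0.0499 to 0.580 CPM in Isoflurane-Sepsis against 1.83 to 3.81 CPM in controls, and 0.588 to 1.41 CPM in Propofol-Sepsis against 2.74 to 23.9 CPM. The groups did not overlap, and the spread among the propofol controls was wide. Its sepsis mean was below the threshold, so it is a member through controls, a choice that favors a fall. Slc2a12 and Slc50a1 fell under both (-1.30 and -1.15, and -0.44 and -0.63). Slc2a6, a lysosomal carrier of macrophages, rose from 0.0929 to 0.248 CPM to between 0.948 and 2.84 CPM under isoflurane, and from 0.480 to 1.54 CPM to between 2.51 and 5.02 CPM under propofol. Its control mean was below the threshold, so it is a member through sepsis.

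Of 12 carboxylate carriers 3 were called higher and 5 lower under each anesthetic. Slc16a3 and Slc5a8 were called higher under both, Slc16a6 under isoflurane and the much read Slc13a5 under propofol. Slc16a3, the lactate exporter MCT4 of glycolytic and activated myeloid cells, had 1.75, 4.32, 11.5 and 2.78 CPM in Isoflurane-Sepsis and 0.271 to 0.517 CPM in controls, and 1.06 to 2.00 CPM in Propofol-Sepsis against 0.144 to 0.619 CPM. Its log2 fold changes were 3.78 (SE 0.66) and 1.86 (SE 0.37), and it is a member through sepsis. Slc5a8, a sodium-coupled carrier of short-chain carboxylates, had 4.59, 4.77, 7.10 and 13.9 CPM against 0.232 to 1.25 CPM under isoflurane. Under propofol it had 1.19, 6.24, 2.83 and 1.25 CPM against 0 to 0.0952 CPM, so that its fitted log2 fold change of 5.95 (SE 0.89) rests on near-empty controls. It too is a member through sepsis. Slc16a1, the widely expressed lactate carrier MCT1, was not called (0.07 and 0.01).

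Slc16a6, known as a carrier of the ketone body beta-hydroxybutyrate out of hepatocytes, varied widely among the septic livers under isoflurane. It had 7.48, 24.1, 55.7 and 93.2 CPM in libraries 1 to 4, against 3.48 to 5.06 CPM in controls. The change was 3.40 (SE 0.67, adjusted p = 0.0032, edgeR), a 10.6-fold rise. In Propofol-Sepsis it had 8.64, 16.8, 10.7 and 7.51 CPM against 3.54, 6.11, 9.81 and 3.70 CPM, with overlap (0.89, adjusted p = 0.063, edgeR). The difference between the responses was 2.50 (SE 0.80, adjusted p = 0.088, edgeR). It was called in 2 of 23 alternatives, by DESeq2 (2.51, adjusted p = 0.038) and without library 1 (2.86, adjusted p = 0.0080, edgeR). In the other alternatives the adjusted p reached 0.29. Leaving out library 1 raised the interaction calls over all genes as well, from 289 to 1615.

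Slc13a5, the plasma membrane citrate carrier of the liver, ran in the other direction among the same libraries, with 533, 492, 265 and 88.9 CPM in Isoflurane-Sepsis against 371, 350, 420 and 239 CPM in controls. Libraries 1 and 2 were above every control and library 4 below every control, and the mean change was -0.00 (SE 0.46). Under propofol it rose, with 701, 575, 882 and 837 CPM against 467, 281, 277 and 527 CPM (0.94, SE 0.22, adjusted p = 0.0082, edgeR, and 0.067 with all 16 libraries in 1 fit). The difference between the responses was -0.95 (adjusted p = 0.31, edgeR). Slc16a12, a creatine carrier, fell under both, with 20.5, 14.2, 15.1 and 11.8 CPM against 49.7 to 60.3 CPM, and 33.5, 25.8, 30.5 and 27.6 CPM against 85.4 to 106 CPM. Its log2 fold changes were -1.83 (SE 0.15) and -1.69 (SE 0.10).

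Carriers of organic ions and drugs had no call higher under either anesthetic. Of 17, 9 fell under isoflurane and 11 under propofol, at medians of -0.44 and -0.54 (edgeR, and 0 were higher at an unadjusted p or by DESeq2 or limma-voom). Their summed level was between 440 and 551 CPM in Isoflurane-Sepsis against 672 to 707 CPM in controls, and between 602 and 649 CPM in Propofol-Sepsis against 847 to 964 CPM, without overlap. Slc22a7, an organic anion carrier of the hepatocyte surface, fell from 68.8 to 78.0 CPM to 43.3 to 54.8 CPM under isoflurane (-0.67, adjusted p = 0.00065, edgeR) and from 88.6 to 104 CPM to 53.4 to 64.4 CPM under propofol (-0.73, adjusted p = 0.00018, edgeR). The most read of the class, Slc22a23, whose substrates are not settled, had 46.3 to 112 CPM against 102 to 117 CPM under isoflurane (-0.48, adjusted p = 0.11, edgeR) and fell under propofol (-0.42, adjusted p = 0.034, edgeR, a call lost in 6 of 16 alternatives). Slc22a5, the carnitine carrier OCTN2, fell 2.12-fold and 2.01-fold.

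Slc22a8, an organic anion carrier, fell under propofol from 140 to 182 CPM to 64.4 to 92.2 CPM (-1.14, adjusted p = 0.00013, edgeR). In Isoflurane-Sepsis it had 77.9, 64.1, 47.7 and 16.9 CPM against 88.6 to 102 CPM. The groups did not overlap there, but the spread was wide and the change of -0.88 was not called (adjusted p = 0.068, edgeR). It was called in 5 of 16 alternatives, among them DESeq2 (adjusted p = 0.032) and limma-voom (adjusted p = 0.049). In the others the adjusted p reached 0.13. Slc10a2, the bile acid uptake carrier of bile duct and ileum, fell from 5.74 to 9.90 CPM to 0.785 to 4.44 CPM and from 4.33 to 6.76 CPM to 2.24 to 3.50 CPM. Slc22a25 belongs to a cluster of similar genes, among which reads may be split, and its falls (-1.39 and -1.76) are uncertain. It is also a member through controls, with a sepsis mean below the threshold.

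Of the 5 fatty acid carriers, which also hold acyl-CoA synthetases, the much read Slc27a2 and Slc27a5 fell and the less read Slc27a4 rose. Slc27a2 had 410 to 493 CPM in Isoflurane-Sepsis against 643 to 694 CPM (-0.58, SE 0.09) and 319 to 429 CPM in Propofol-Sepsis against 472 to 522 CPM (-0.44, SE 0.10). Slc27a5, which activates bile acids, had -0.64 and -0.32, and its propofol groups overlapped (adjusted p = 0.047, edgeR, a call lost in 10 of 16 alternatives). Slc27a4 had 0.70 and 0.61.

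Among metal carriers, Slc11a1, which moves iron and manganese out of the phagosome of macrophages and neutrophils, had 23.1 to 30.8 CPM in Isoflurane-Sepsis against 9.06 to 11.9 CPM. In Propofol-Sepsis it had 26.6 to 34.6 CPM against 13.2 to 17.8 CPM. The groups did not overlap, at 1.28 (adjusted p = 0.00015, edgeR) and 0.87 (adjusted p = 0.00033, edgeR). Slc11a2, the DMT1 iron carrier, rose as well (0.53 and 0.84). The neutrophil and monocyte markers named earlier rose beside them. The Kupffer cell and macrophage markers had a median log2 fold change of 0.35 under isoflurane and -0.08 under propofol. The part of these cells was not tested.

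The zinc importers of the Slc39 family had 1 call higher and 4 lower of 10 under isoflurane and 1 higher and 3 lower under propofol. These shares, 50.0% and 40.0%, were near the 50.0% and 42.1% of all genes called. Slc39a8, Slc39a3 and Slc39a13 fell under both. Of the 6 Slc30 carriers, most of which move zinc into vesicles and the Golgi, 1 was called higher and 2 lower under isoflurane, and 4 higher and 0 lower under propofol. The count of 0 lower was the same in edgeR at an unadjusted p under 0.05, in DESeq2 and in limma-voom. Slc30a7 had 0.18 under isoflurane and rose under propofol (0.67, adjusted p = 8.8e-05, edgeR), and the difference was -0.50 (adjusted p = 0.14, edgeR). Slc41a2, a magnesium carrier and the most read metal carrier, had 899, 836, 493 and 566 CPM in Isoflurane-Sepsis against 665 to 685 CPM in controls, so that 2 libraries lay above and 2 below. Under propofol it rose by 0.30 (adjusted p = 0.022, edgeR) with overlap, a call lost in 7 of 16 alternatives, among them leaving out library 9, 11, 12, 14 or 16 (adjusted p up to 0.12, edgeR).

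Among the carriers of inorganic ions 7 rose and 6 fell of 24 tested under isoflurane, and 7 rose and 5 fell of 25 under propofol. The shares called, 54.2% and 48.0%, were near the 50.0% and 42.1% of all genes. Slc26a1, a sulfate and oxalate exchanger of the hepatocyte surface, had 35.4, 45.7, 36.0 and 12.5 CPM in Isoflurane-Sepsis against 153 to 189 CPM. In Propofol-Sepsis it had 118, 64.0, 87.1 and 93.2 CPM against 253 to 375 CPM. It fell by 2.36 (SE 0.32) and 1.77 (SE 0.18) on the log2 scale without overlap. Of the 6 anion and bicarbonate carriers of the Slc4 family 4 were called higher under isoflurane and 5 under propofol, among them Slc4a4 (0.66 and 0.40), Slc4a7 (0.44 and 0.53) and Slc4a11 (3.12 and 1.96, a member through sepsis). Slc4a8 rose under propofol, from 0.809 to 3.22 CPM to 4.39 to 9.15 CPM (1.72, adjusted p = 0.0075, edgeR), and was at 0 in Isoflurane-Sepsis library 4. Of the cation-chloride carriers that regulate cell volume, the importer Slc12a2 rose (0.66 and 0.67) and the exporter Slc12a7 fell (-0.59 and -0.62). Another exporter, Slc12a4, rose under isoflurane (0.35, adjusted p = 0.0095, edgeR) and had 0.15 under propofol (adjusted p = 0.17, edgeR).

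The betaine and GABA carriers of the hepatocyte fell under both anesthetics. Slc6a12, which takes up betaine, had 4.69, 4.38, 3.99 and 3.38 CPM in Isoflurane-Sepsis against 16.6 to 18.4 CPM, and 9.88, 6.49, 6.52 and 8.33 CPM in Propofol-Sepsis against 17.5 to 28.3 CPM, at -2.06 (SE 0.11) and -1.57 (SE 0.17). Slc6a13, the GABA carrier of the liver, had -1.22 and -0.87. The creatine carrier Slc6a8 and the vesicular ATP carrier Slc17a9 were not called.

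Of the 14 carriers of vitamins, choline and heme 2 rose and 2 fell under isoflurane, and 3 rose and 4 fell under propofol. That was 28.6% and 50.0% called, against 50.0% and 42.1% of all genes. The ascorbate carriers were opposed: Slc23a1 fell from 16.9 to 20.5 CPM to 3.69 to 7.87 CPM and from 19.7 to 22.9 CPM to 5.66 to 9.21 CPM (-1.64 and -1.57), while Slc23a2 rose (1.03 and 0.66). The choline carrier Slc44a1 rose from 52.2 to 60.5 CPM to 71.6 to 94.7 CPM and from 59.99 to 80.9 CPM to 104 to 119 CPM (0.58 and 0.68). The folate carrier Slc19a1 and the thiamine carrier Slc19a2 fell under propofol (-0.68 and -0.36) and had 0.02 and -0.13 under isoflurane. Of the 11 carriers of nucleosides and nucleotide sugars 1 rose and 3 fell under isoflurane, and 1 rose and 2 fell under propofol. These shares, 36.4% and 27.3%, lay below those of all genes. Slc29a3, a lysosomal nucleoside carrier, fell under both (-1.20 and -1.16). The most read of the class, the acetyl-CoA carrier Slc33a1, was not called (-0.11 and 0.07). The orphan carrier Slc10a3 rose under both (0.56 and 0.45). Of the 4 symbols that name no carrier, the scaffold Slc9a3r2 fell under both (-1.01 and -0.60), and Slc9a3r1, the most read of them, was not called (0.09 and 0.40).

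Carriers outside the symbol pattern, such as the Slco organic anion family and other Slc35 members, had 2 calls higher and 10 lower of 31 tested under isoflurane and 5 and 10 under propofol. The shares called were 38.7% and 48.4%, against 50.0% and 42.1% of all genes. The prostaglandin carrier Slco2a1 had the lowest fold change under isoflurane (15.3 to 20.3 CPM against 71.1 to 78.9 CPM, -2.04), and fell under propofol too (-1.71). Slco2b1 fell (-1.52 and -0.93), and Slc35d2 fell (-1.32 and -1.90). Slco5a1 fell under propofol (-1.82), where Slco3a1 (1.28), Slc35e1 (0.42) and Slc35f5 (0.34) rose. Under isoflurane Slco5a1, Slco3a1 and Slc35e1 were not called (adjusted p = 0.10, 0.067 and 0.40, edgeR). The first 2 had the same direction there, from -2.13 to -0.91 and from 0.53 to 1.11 in the alternatives. The responses of the 3 were not shown to differ between anesthetics (interaction adjusted p = 0.76, 0.59 and 0.24, edgeR). Slc35f5 (0.50) and Slc35e4 (0.88) rose under isoflurane. Of the partners and regulators of carriers, 8 were higher and 4 lower of 19 under isoflurane (63.2% called) and 4 and 2 under propofol (31.6%). Pdzk1, a scaffold that holds carriers at the membrane, had 0.665 to 3.39 CPM in Isoflurane-Sepsis against 17.8 to 20.9 CPM, and 5.12 to 9.43 CPM in Propofol-Sepsis against 20.6 to 25.2 CPM (-3.01 and -1.66). The ubiquitin ligase Nedd4l, which removes carriers from the surface, fell (-0.42 and -0.67), and Arl6ip5, which binds a glutamate carrier, rose (0.45 and 0.60). The kinases Wnk2 and Wnk4 rose under isoflurane (1.28 and 1.09), but the call of Wnk2 was lost in 3 of 15 alternatives (adjusted p = 0.18 with all 16 libraries in 1 edgeR fit) and that of Wnk4 without library 5 or 7. Under propofol Wnk2 had 2.47 with library 10 and 0.76 without it, neither called. The kinase Sgk2 fell under isoflurane (-2.96) and had -0.79 under propofol, a difference of -2.18 (adjusted p = 0.025, edgeR). Sgk1, a kinase that keeps carriers at the surface, rose under propofol (1.01) and had -0.61 under isoflurane (adjusted p = 0.10, edgeR), a difference of -1.63 (adjusted p = 0.040, edgeR). The interaction calls of Sgk2 and Sgk1 were lost in 6 and 10 of 23 alternatives, with adjusted p up to 0.062 and 0.086 (edgeR), each when 1 library was left out. Both kinases already differed between the controls, with the higher level under isoflurane (adjusted p = 0.028 for Sgk2 and 0.00014 for Sgk1, edgeR). That log2 difference was between 1.66 and 1.98 for Sgk1 in the alternatives. For Sgk2 it was between 0.45 and 0.86, and its call was lost in 6 of 15.

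The difference between a member's responses to sepsis under the 2 anesthetics was fitted as an interaction term, isoflurane minus propofol, with every library in 1 model. Of 154 members tested 1 was called with the higher response under isoflurane and 3 with the lower, against 2.72% of all genes (1.66% and 1.06%), so the members' share was near that of all genes. At an unadjusted p under 0.05 there were 39 members, and DESeq2 called 6 and 6.

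Slc41a3, a magnesium carrier, had 10.9, 9.54, 7.20 and 9.06 CPM in Isoflurane-Sepsis against 12.6, 12.3, 13.8 and 11.7 CPM in controls, and 8.25, 8.73, 9.62 and 9.49 CPM in Propofol-Sepsis against 6.11, 3.84, 5.05 and 7.82 CPM. It fell under isoflurane (-0.46) and rose under propofol (0.65), with an interaction of -1.12 (SE 0.23, adjusted p = 0.028, edgeR). The septic groups overlapped and the control groups did not. Slc6a9, the glycine carrier GLYT1, had 33.8, 54.8, 61.3 and 79.8 CPM in Isoflurane-Sepsis against 31.0, 28.2, 28.9 and 30.1 CPM, and 50.04, 56.1, 66.3 and 49.2 CPM in Propofol-Sepsis against 68.5, 74.8, 98.3 and 48.9 CPM. It rose under isoflurane (0.96) and had -0.40 under propofol, with an interaction of 1.35 (SE 0.31, adjusted p = 0.037, edgeR). Here too the septic groups overlapped and the controls did not.

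Slc36a4, a lysosomal amino acid carrier, fell under isoflurane (1.61 to 2.60 CPM against 3.04 to 4.69 CPM, -0.76) and had 2.34 to 3.80 CPM against 1.92 to 2.74 CPM under propofol (0.44), an interaction of -1.21 (adjusted p = 0.040, edgeR). Slc30a3, a vesicular zinc carrier, fell under isoflurane (a mean of 0.998 CPM against 2.35 to 2.82 CPM, -1.40) and had -0.07 under propofol, an interaction of -1.34 (adjusted p = 0.046, edgeR). These calls were not stable. Without any 1 of the 4 isoflurane controls (libraries 5 to 8), or without library 12 or library 15, no member was called by edgeR, with 29 to 32 members at an unadjusted p under 0.05. Without library 3, 9 or 13 there was 1 call and without library 2, 11 or 14 there were 2, while without library 1 there were 20 and without library 10 there were 8.

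**Figure D4:**
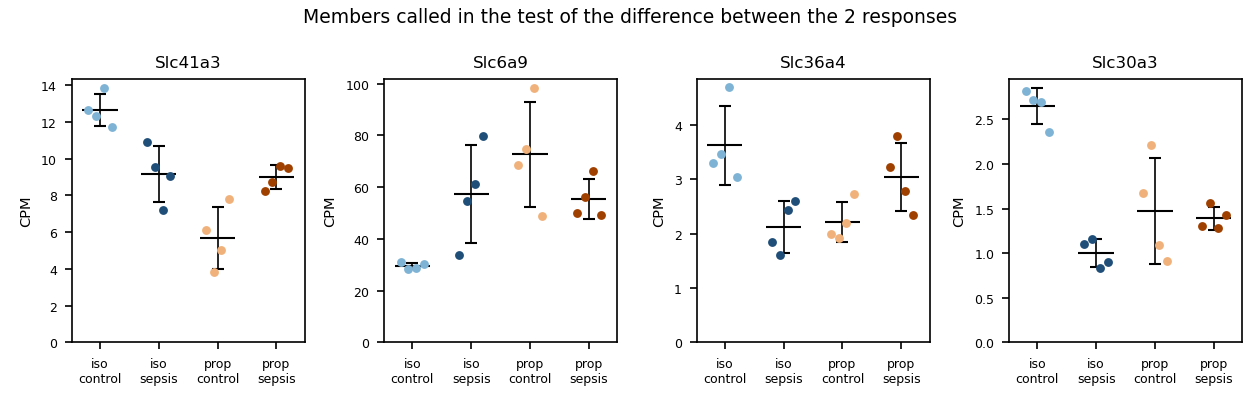
TMM-scaled CPM (linear axes from 0) of Slc41a3, Slc6a9, Slc36a4 and Slc30a3 in each library, with group means and SD bars (n = 4). The isoflurane controls sit apart from the propofol controls for each of the 4, and the septic groups overlap for all but Slc30a3.

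The control groups were compared with each other, isoflurane minus propofol. These libraries are also the controls of the sepsis comparisons, so the values are given beside those and not as a separate line of evidence. The hepatocyte markers moved with this comparison: 7 of 8 were called higher under isoflurane, and their sum was between 185429 and 195542 CPM in isoflurane controls and between 143895 and 155855 CPM in propofol controls, without overlap. Their part in the results that follow was not tested. Of 150 members tested 37 were higher under isoflurane and 42 lower, against 43.3% of all genes (21.6% higher and 21.7% lower). With library totals alone in place of TMM scaling, the median of all genes moved by -0.15 and the calls to 23 higher and 64 lower. None of the 42 named genes with a call here changed sign in any alternative. Control libraries did not overlap for 64 members (40.3% of all genes).

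Of the 23 amino acid carriers 11 were higher under isoflurane and 7 lower. Among those that rose in sepsis, Slc38a2 (0.95), Slc1a4 (1.32), Slc7a2 (1.12) and Slc16a10 (1.03) had the higher control level under isoflurane. Slc6a9 and Slc1a3 had the lower (adjusted p = 0.00017 and 0.0092, edgeR), and Slc1a5 and Slc7a8 were not called. Slc7a2, of the smallest adjusted p (2.2e-05, edgeR), had 339 to 398 CPM under isoflurane and 136 to 188 CPM under propofol. The taurine carrier Slc6a6 was higher under isoflurane (6.50 to 7.96 CPM against 2.15 to 3.17 CPM, 1.48), as were Slc27a2 (0.43) and Slc17a5 (0.41).

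Higher under propofol were Slc3a2 (463 to 597 CPM against 297 to 333 CPM, -0.73), Slc17a2, a phosphate and organic anion carrier (61.8 to 87.1 CPM against 31.3 to 39.4 CPM, -1.08), Slc22a8 (-0.79), Slc16a12 (-0.78) and Slc16a13 (-0.83). Of the 5 fatty acid carriers 3 were higher under isoflurane and 0 lower (0 also in edgeR at an unadjusted p, in DESeq2 and in limma-voom). Of the 14 carriers of vitamins, choline and heme 1 was higher and 7 lower, among them the folate and heme carrier Slc46a1 (-1.10).

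Library 10 carried members that other libraries nearly lacked. Slc17a7, which loads glutamate into synaptic vesicles, had 11.3 CPM (231 reads) in it and at most 1.02 CPM elsewhere, and Slc12a5, the neuronal potassium-chloride exporter, 20.05 CPM (411 reads) against at most 1.31 CPM. Slc24a2, a retinal and neuronal exchanger, had 8.63 CPM against at most 1.57 CPM, and Slc1a3 27.6 CPM against at most 4.49 CPM. These 4 were among the 5 members at least 3 times higher in library 10 than in every other library. Slc17a7, Slc12a5 and Slc24a2 averaged below the threshold over the other libraries.

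The myelin gene Mbp had 162 CPM in library 10 and at most 12.6 CPM elsewhere. The cerebellar genes Cbln1 and Gabra6 had 10.4 and 10.2 CPM in it and at most 0.242 and 0.0304 CPM elsewhere. Their part in the members' levels was not tested. Of the members given here, Slc1a3 was called higher in sepsis under propofol (2.37, adjusted p = 0.042, edgeR). Without library 10 its change was 0.67 (adjusted p = 0.041, edgeR), from 1.11 to 2.21 CPM in controls to 2.37 to 3.37 CPM, and under isoflurane it was 1.66 (adjusted p = 0.0036, edgeR). The propofol call was lost in 6 of 15 alternatives, which were limma-voom (adjusted p = 0.22), no filter on low counts, and leaving out any of the 4 propofol controls. Without library 10 Slc12a5 went from 2.53 to 0.21, Slc17a7 from 3.29 to 0.72 and Slc24a2 from 1.06 to -0.77, none of them called with or without it. The number of members called under propofol was 81 with library 10 and 83 without it.

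**Figure D5:**
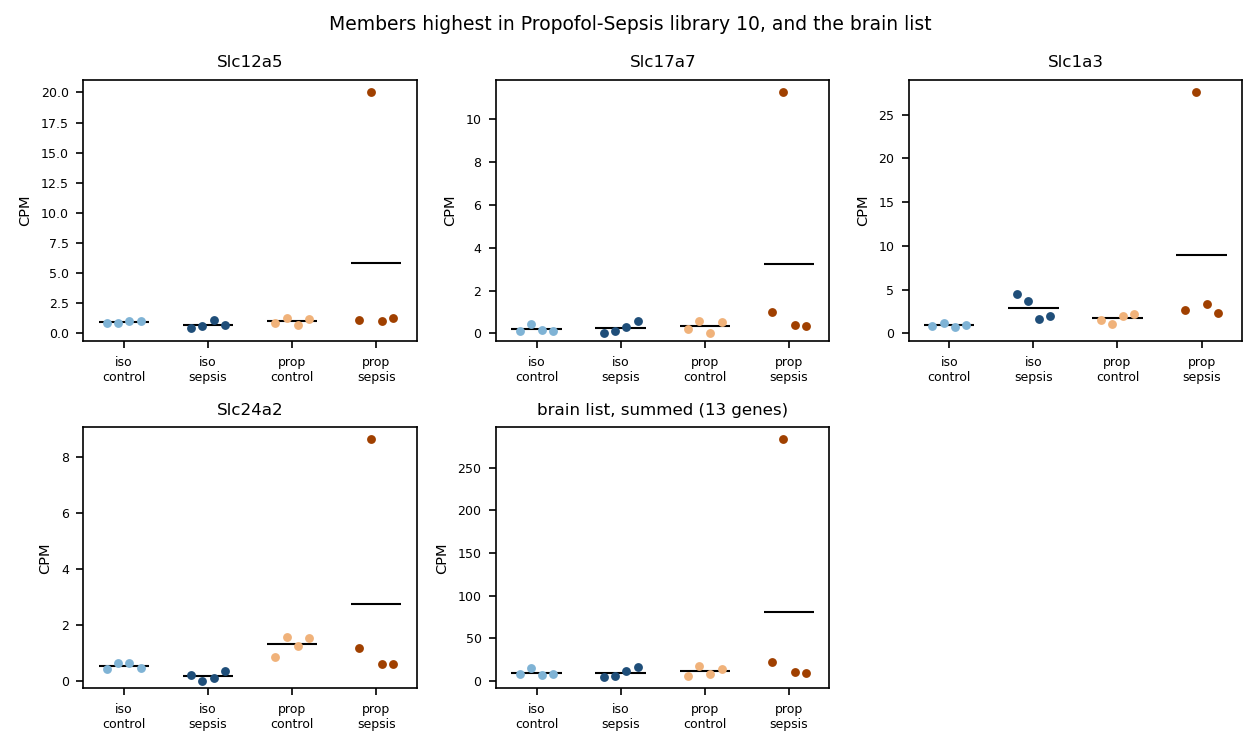
TMM-scaled CPM (linear axes) of Slc12a5, Slc17a7, Slc1a3 and Slc24a2 and the sum of 13 brain genes in each library, with lines at group means. In each panel 1 Propofol-Sepsis point, library 10, lies far above the other 15 libraries.

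The spread of members within groups was larger in Isoflurane-Sepsis than in the other groups. Its median coefficient of variation over the 155 members was 20.7%, against 7.68% in isoflurane controls, 14.2% in Propofol-Sepsis and 13.4% in propofol controls. Over all 9775 genes of at least 1 CPM the medians were 15.8%, 6.39%, 10.1% and 9.52%, in the same order. Coefficients above 50% were found for 20 members in Isoflurane-Sepsis, 3 in isoflurane controls, 13 in Propofol-Sepsis and 8 in propofol controls. Library 4 held the low end for Slc13a5, Slc26a1, Slc2a2, Slc22a8 and Slc37a4 and the high end for Slc16a6, Slc5a8, Slc38a2, Slc7a2 and Slc23a2, and library 1 lay nearest to the controls for Slc16a6, Slc16a3, Slc1a5 and Slc38a2.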

How the data were processed

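Liver RNA was sequenced from stranded poly(A) libraries. The authors deposited whole-number read counts per gene symbol. The submitters' processing notes name STAR and rn5, and neither the counting program nor its strand setting was given in the sources used here. Rows that name no gene were left out: reads outside genes were 21.6% to 25.4% and ambiguous reads 1.07% to 1.35% of all counted reads. No GEO label ties a library to the rats it pooled.

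Counts were fitted as deposited with edgeR 4.0.16 in R 4.3.3 (TMM scaling, quasi-likelihood test, genes kept by filterByExpr at minimum counts of 10 and 15 in total). P-values were adjusted by Benjamini-Hochberg over all genes tested in each of 4 comparisons. Nothing says whether the pools of a group came from separate surgery days, so p-values measure the spread between these libraries. No pair of libraries within a group agreed within sampling noise (chi-square per degree of freedom 3.47 to 102 over 24 pairs). The fits recovered known changes in simulated counts with 200 genes changed. These counts were drawn from the count model that the fits assume, without a library that stood apart as library 10 did. The simulation therefore checks that the fits run correctly and not how they behave under such departures.

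The members and lists were chosen with earlier results of these data known. Members were named by rule: the 10 largest rises and falls per sepsis comparison among calls without overlap, every interaction call, the 5 smallest adjusted p in each direction between controls, the 10 most read, the most read of each class, those next to the threshold, and the 2 largest rises and falls of the lists of other carriers and of partners. Members named beyond this rule were chosen after their values had been seen. Some genes are not reported here. Alternatives were other scalings and filters, thinned counts, DESeq2 1.42.0, limma-voom (limma 3.58.1), other member thresholds and leaving out each library. Promoter sequences are from RefSeq (GRCr8), matched by symbol, 2 of them by an older symbol, and coordinates are of that build.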

Additional observations from a re-analysis of the deposited data

Results flagged for a closer look

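In 17 of 208 groups of 4 libraries (8.17%) the highest or lowest value lay far from the other 3. Chance flags about 1 in 20 groups if the groups are independent. These groups share the same 16 libraries, with 5 flags in library 10 and 4 in library 6. The share is therefore not read as an excess over chance. In Propofol-Sepsis, library 10 was far above the others for Slc1a3 (27.6 CPM), Slc17a7 (11.3 CPM) and Slc24a2 (8.63 CPM) and far below for Slc2a9 (8.83 CPM) and Slc17a9 (49.3 CPM). In isoflurane controls, library 6 stood apart for Slc2a6 (0.248 CPM), Slc17a7 (0.446 CPM), Slc44a4 (1.98 CPM) and Slc7a8 (1.09 CPM), and library 7 for Slc5a8 (0.232 CPM) and Slc23a1 (20.5 CPM). Library 8 stood apart for Slc6a12 (18.4 CPM) and in its depth (49937173 reads on genes), and library 5 for Slc38a4 (675 CPM). In propofol controls the libraries were 13 for Slc2a6 (1.54 CPM), 15 for Slc9a3r1 (524 CPM) and 14 for Slc33a1 (133 CPM).

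The interaction test called Slc41a3 (-1.12 on the log2 scale), Slc6a9 (1.35), Slc36a4 (-1.21) and Slc30a3 (-1.34), isoflurane minus propofol. These calls were not stable, being lost in 6, 11, 14 and 15 of 23 alternatives, in the same order.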

How the results depend on the processing

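Under isoflurane between 77 and 96 members were called when each library in turn was left out (32 to 38 higher, 44 to 59 lower), and under propofol between 65 and 83 (29 to 36 higher, 36 to 48 lower). Between the controls the range was 60 to 78 (29 to 37 higher, 31 to 43 lower). The interaction count was not stable, with 0 to 20 members called (0 to 7 higher, 0 to 13 lower). Leaving out library 1 gave 20, leaving out library 10 gave 8, and leaving out any of libraries 5, 6, 7, 8, 12 or 15 gave 0 with edgeR (29 to 32 members at an unadjusted p under 0.05). DESeq2 called 12 in the interaction (6 higher and 6 lower). Limma-voom called 2 there (0 higher), and thinned counts called 2 (1 lower). Members with a mean of at least 5 CPM had 2 interaction calls (1 lower) and 23 calls higher under propofol, there being 109 of them. Library totals alone, without TMM, gave 23 higher and 64 lower between the controls. The cause of the other shifts was not tested. Of the named genes that were called, 39 of 47 kept it under isoflurane in every alternative, 38 of 46 under propofol, 30 of 42 between controls and 0 of 6 in the interaction, and none changed sign. The calls lost in some alternative were those of Slc1a3, Slc17a5, Slc16a13, Slc15a4, Wnk2, Wnk4, Arl6ip5 and Nedd4l under isoflurane, of Slc1a3, Slc41a3, Slc6a6, Slc16a13, Slc41a2, Slc13a5, Slc27a5 and Slc22a23 under propofol, and of Slc7a6, Slc2a5, Slc23a1, Slc2a9, Slc4a8, Slc38a3, Slc33a1, Slc10a3, Slc44a1, Slc35f5, Pdzk1 and Sgk2 between controls. Leaving out the members that stood out in library 10, or the 10 with a mean below 1 CPM in controls or in sepsis, was chosen after the data had been seen. No paired analysis was possible because the groups share no replicate numbers. Each group had 4 pools, so that differences between single rats were not measured.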
